A study of Bos taurus and Bos indicus with 6 samples.

Results

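The enzymes described here are those of the citric acid cycle, chosen by gene name: CS, IDH3A, IDH3B, IDH3G, OGDH, DLST, SUCLG1, FH and MDH2. Every probe set that the platform annotation gives to 1 of these 9 symbols was taken, which gave 11 probe sets of 7 genes out of 24016 probe sets tested. Where a gene has 2 probe sets they are numbered in the order of their identifiers. IDH3B and DLST had no probe set under their symbol in the annotation used and are not analysed here. RNA came from circulating white blood cells of 3 Brahman (Bos indicus) and 3 Holstein (Bos taurus) females, 6 months old, all carrying heavy challenges with the tick Rhipicephalus microplus. Each animal had its own Affymetrix bovine array. All 6 animals were infested, so differences that exist without ticks are part of every value. The cell pellet was unsorted, so a smaller share of a cell type and less RNA per cell cannot be told apart.

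The citric acid cycle burns acetyl groups to carbon dioxide in the mitochondrial matrix and hands the electrons to the respiratory chain. It also supplies citrate for lipid synthesis and other intermediates for amino acids. In leukocytes it is known for being rewired on activation, when citrate, succinate and fumarate also act as signals. CS joins acetyl-CoA to oxaloacetate. The IDH3 complex and the 2-oxoglutarate dehydrogenase complex, of which OGDH is the first component, carry out the oxidative decarboxylations. Succinyl-CoA ligase, with SUCLG1 as its shared alpha subunit, fumarate hydratase (FH) and malate dehydrogenase (MDH2) complete the return to oxaloacetate.

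Values are log2 RMA expression values, and differences are Brahman minus Holstein, so a negative difference is lower in Brahman. At an unadjusted limma p under 0.05, SUCLG1, FH probe set 1 and MDH2 probe set 2 were lower in Brahman, by 0.37 to 0.45 or 1.30 to 1.37-fold. CS probe set 1 was higher at that threshold, by 0.53, though the breeds overlapped. The other 7 member probe sets differed by -0.24 to 0.11. Among these, FH probe set 2 was lower in Brahman without overlap, at -0.24, and MDH2 probe set 1 differed by -0.06. With limma and Benjamini-Hochberg adjustment over all 24016 probe sets, 0 of the 11 member probe sets were called at an adjusted p under 0.05, where 33 probe sets (0.137%) were called in all. At an unadjusted limma p under 0.05, 3 of 11 were lower in Brahman, against 6.47% of all probe sets. In the higher direction it was 1 of 11, against 7.12% of all. Of the 13292 probe sets with 1 gene symbol, as all members have, 1092 were lower and 854 higher at that threshold. The breeds did not overlap in 4 of 11 with Brahman lower, against 8.37% of all, and in 0 of 11 with Brahman higher, against 11.7% of all. Of the 13292 with 1 symbol, 1398 were separate with Brahman lower and 1416 with Brahman higher. The median difference of the 11 was -0.10, beside 0.02 over all probe sets and 0.0043 over those with 1 symbol. The members' median was -0.02 without Holstein 1 and -0.16 without Holstein 2.

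**Figure D1:**
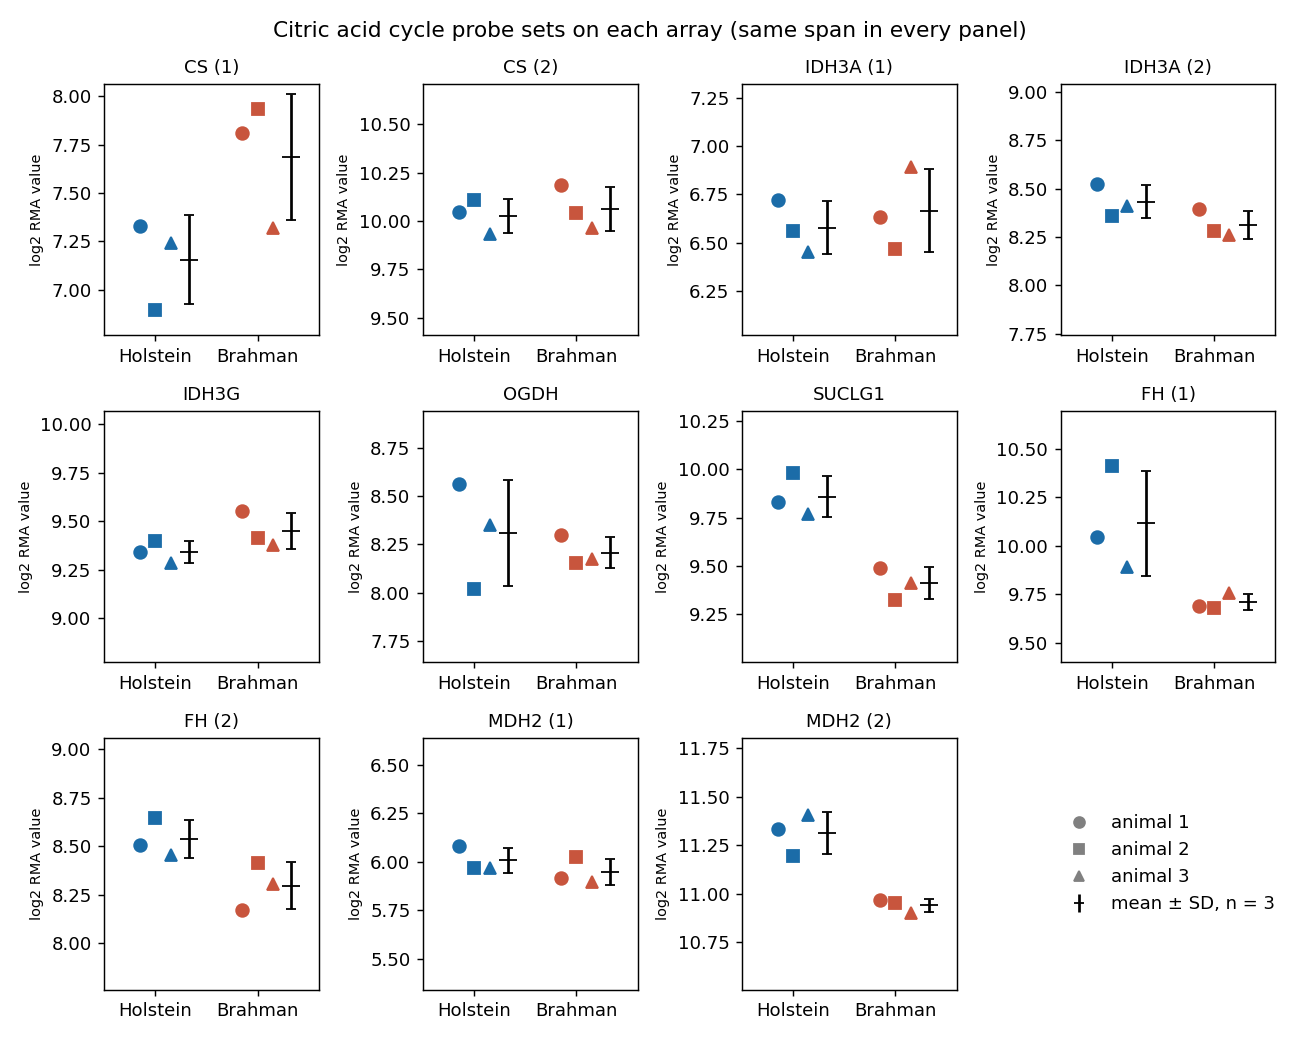
Log2 RMA value (vertical axis, the same span of log2 units in each panel) of the 11 member probe sets on each Holstein and Brahman array, with the mean and SD of the 3 animals of a breed in black. Numbers in brackets tell probe sets of a gene apart. The breeds are separate for SUCLG1, both FH probe sets and MDH2 (2), and overlap in the other panels.

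Leukocyte markers ran from bright to dim. S100A8 of neutrophils read 13.58 in Brahman and 13.60 in Holstein, and the T cell gene CD3E 11.46 and 10.92. The NK cell gene NCAM1 read 4.31 and 4.21. Other NK cell genes went both ways, KLRD1 at 0.90, NCR1 at 0.09 and PRF1 at -0.60. Both ALPL sets of the neutrophil list were higher in Brahman, by 1.42 and 0.93 (limma adjusted p = 0.0834 and 0.0936). The rest of that list did not follow, differing by -0.41 (S100A12) to 0.09 (MMP9). The hybridisation spike-in controls, added to every sample in fixed amounts, averaged 9.72 ± 0.08 in Brahman and 10.14 ± 0.22 in Holstein (SD, n = 3 each) without overlap. The 3′ minus 5′ value of the actin controls, a measure of RNA integrity and labelling, was 1.64 to 1.72 in Brahman and 1.73 to 1.98 in Holstein. All 4 probe sets of the 3 monocyte genes on the array out of 5 listed had lower Brahman values. Their array means ran from 8.50 to 8.81 in Brahman and from 9.05 to 9.72 in Holstein. Of 16 probe sets for all 9 listed T cell genes, 14 were higher in Brahman, with array means from 8.59 to 8.76 against 8.44 to 8.52. The T cell set with the smallest p went the other way. It was a CD2 set at -0.72 without overlap (limma adjusted p = 0.0645), where the other CD2 sets differed by 0.40 and 0.07. The monocyte genes CD163 and LYZ are not analysed here, having no probe set with a single symbol. Probe sets lower in Brahman were 3 of 3 for B cell, 1 of 4 for NK cell, 3 of 7 for neutrophil, 4 of 7 for red cell, 1 of 2 for platelet and 3 of 13 for non-blood markers. Over all 24016 probe sets, 10699 were lower in Brahman and 13317 higher. The part of cell composition and labelling in the results that follow was not tested. A fit that holds the array mean of the spike-in controls as a covariate is given beside them. That mean does not measure cell composition and separates the breeds, so the fit cannot tell its part from that of breed.

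Citrate synthase, which opens the cycle, was read by 2 probe sets that did not show the same difference. On CS probe set 1 the Holstein arrays read 7.33, 6.89 and 7.24 and the Brahman arrays 7.81, 7.94 and 7.32. Brahman 1 and Brahman 2 stood above all Holstein arrays, while Brahman 3 lay just under Holstein 1. The difference was 0.53 (SE 0.19, 95% interval 0.09 to 0.97), with a limma p of 0.0235 and an adjusted p of 0.297. Without Holstein 2, Brahman 1 or Brahman 2 it was 0.40, 0.47 and 0.41, no longer under 0.05 before adjustment. With the spike-in covariate it was -0.0082 (limma adjusted p = 0.996). On CS probe set 2 the Holstein arrays read 10.04, 10.11 and 9.93 and the Brahman arrays 10.19, 10.04 and 9.96. The breeds overlapped there, with a difference of 0.04 (95% interval -0.20 to 0.27, limma adjusted p = 0.915). The gap between the probe sets within an array, set 1 minus set 2, was -2.38 in Brahman and -2.87 in Holstein on average. These gaps did not overlap, and a two-sided exact permutation test gave p = 0.1, which is the lowest value possible with 3 arrays a breed. The mean of both probe sets differed by 0.28 with an unadjusted limma p of 0.0510 when both were averaged before the fit.

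IDH3A, the catalytic subunit of the NAD-dependent isocitrate dehydrogenase, also had 2 probe sets, and both overlapped between the breeds. On IDH3A probe set 1 the Holstein arrays read 6.72, 6.56 and 6.45 and the Brahman arrays 6.63, 6.47 and 6.89. Brahman 3 was the highest of the 6 and Holstein 3 the lowest. The difference was 0.09 (95% interval -0.22 to 0.40). On IDH3A probe set 2 Holstein read 8.53, 8.36 and 8.41 and Brahman 8.40, 8.28 and 8.26. The difference there was -0.12 (95% interval -0.34 to 0.10), so the sets had opposite signs, both within their errors.

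The regulatory subunit IDH3G varied little among animals. The Holstein arrays read 9.34, 9.40 and 9.29 and the Brahman arrays 9.55, 9.42 and 9.38. Brahman 1 was highest and the other Brahman arrays lay close to the Holstein ones. The difference was 0.11 (SE 0.09, 95% interval -0.11 to 0.32, limma adjusted p = 0.657).

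OGDH, the thiamine-dependent first component of the 2-oxoglutarate dehydrogenase complex, had the widest Holstein spread of the members. Its Holstein arrays read 8.56, 8.02 and 8.35 and its Brahman arrays 8.30, 8.15 and 8.17. The Brahman values lay inside the Holstein range. The difference was -0.10 (SE 0.14, 95% interval -0.44 to 0.24, limma adjusted p = 0.804). It was 0.02 without Holstein 1, -0.15 without Brahman 1 and -0.25 without Holstein 2, and -0.60 (limma adjusted p = 0.399, under 0.05 before adjustment) with the spike-in covariate. Holstein 2, the lowest array for OGDH, had the highest spike-in level, 10.38.

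SUCLG1, the alpha subunit shared by the ATP- and GTP-forming succinyl-CoA ligases, had the smallest p of the members. The Holstein arrays read 9.83, 9.98 and 9.77 and the Brahman arrays 9.49, 9.32 and 9.41. Each Brahman array was lower than each Holstein array. The means were 9.41 ± 0.08 and 9.86 ± 0.11 (SD, n = 3 each), a difference of -0.45 (SE 0.10, 95% interval -0.68 to -0.22) or 1.37-fold. The unadjusted limma p was 0.00221, the 344th smallest of 24016, and the adjusted p was 0.154. With each array left out in turn the difference ran from -0.49 to -0.39, at an unadjusted p under 0.05 each time. With the spike-in covariate it was -0.32 (limma adjusted p = 0.576), no longer under 0.05 before adjustment.

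Fumarate hydratase, which turns fumarate into malate, was read by 2 probe sets with the same direction. On FH probe set 1 the Holstein arrays read 10.05, 10.41 and 9.89 and the Brahman arrays 9.69, 9.68 and 9.76. The Brahman animals lay close together and under all Holstein arrays, of which Holstein 2 was far the brightest. The difference was -0.41 (SE 0.14, 95% interval -0.74 to -0.08), with a limma p of 0.0215 and an adjusted p of 0.290. On FH probe set 2 Holstein read 8.51, 8.65 and 8.46 and Brahman 8.17, 8.41 and 8.30. The breeds were separate again, by a narrow margin between Holstein 3 and Brahman 2. The difference was -0.24 (SE 0.10, 95% interval -0.48 to 0.00, limma adjusted p = 0.370), just short of 0.05 before adjustment.

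The size of the FH difference depended on single arrays. Set 1 differed by -0.26 without Holstein 2, the array with the highest spike-in level. Without Brahman 1 or Brahman 2 the unadjusted limma p of set 1 was 0.0559 and 0.0565, with differences of -0.40 and -0.39. Set 2 differed by -0.18 without Brahman 1, and by -0.30 without Brahman 2, where its unadjusted limma p was 0.0392. With the spike-in covariate the 2 sets differed by -0.03 and -0.07.

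MDH2, the matrix malate dehydrogenase that closes the cycle, had 1 bright and 1 dim probe set. On MDH2 probe set 2 the Holstein arrays read 11.33, 11.20 and 11.41 and the Brahman arrays 10.97, 10.95 and 10.90. The Brahman arrays were lower than any Holstein array and lay very close together. The means were 10.94 ± 0.03 and 11.31 ± 0.11 (SD, n = 3 each), a difference of -0.37 (SE 0.09, 95% interval -0.59 to -0.16) or 1.30-fold. The limma p was 0.00435 and the adjusted p 0.189. The direction and an unadjusted p under 0.05 held in all 16 settings run for this probe set. Differences ran from -0.53 with the spike-in covariate to -0.32 when the arrays were quantile-normalised again. The 16 include the main fit, and the dim filters, priors and replicate block, which can change only the p and not the difference.

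On MDH2 probe set 1 Holstein read 6.08, 5.97 and 5.97 and Brahman 5.92, 6.03 and 5.90. The breeds overlapped, with a difference of -0.06 (95% interval -0.27 to 0.15). Whether this set reads above background is not known, since no detection calls were used here, and the lower quartile of all probe sets was 5.07. The gap between the MDH2 sets, set 1 minus set 2, was -4.99 in Brahman and -5.31 in Holstein without overlap (two-sided exact permutation p = 0.1, the lowest possible). For the gaps of IDH3A and FH the same exact permutation test gave p = 0.3 and p = 0.4.

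**Figure D2:**
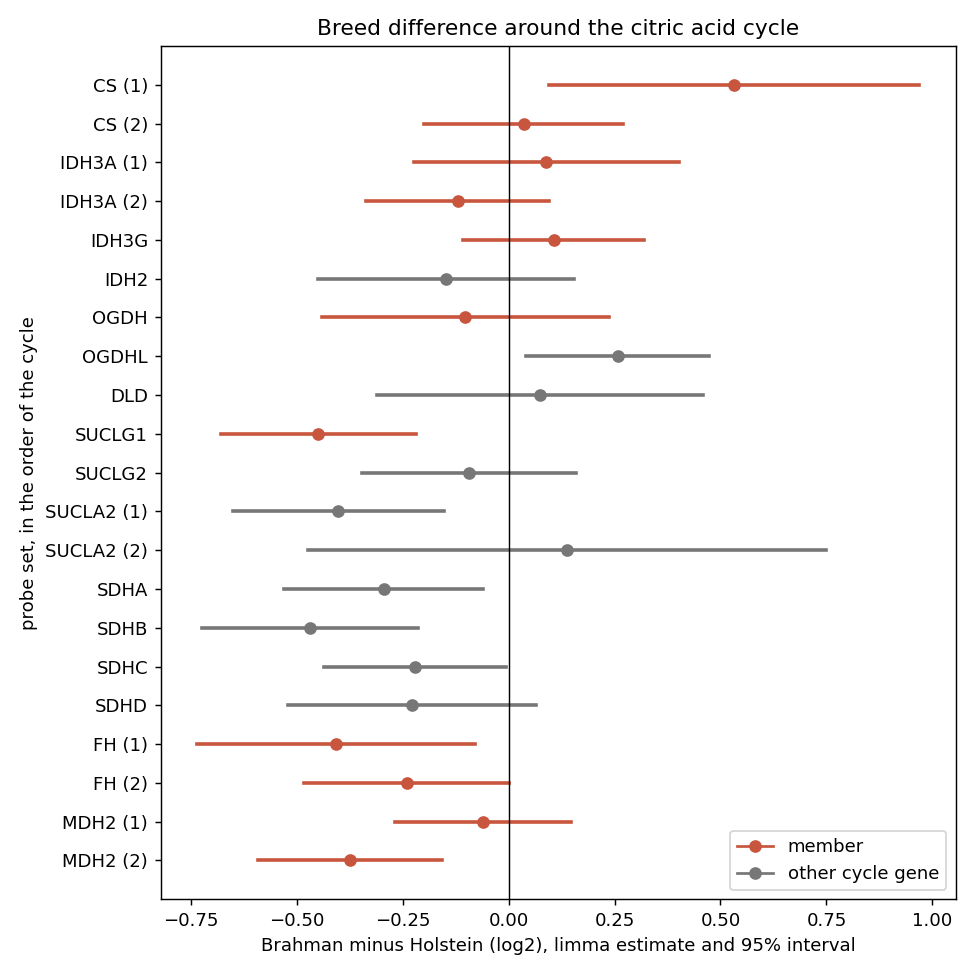
Brahman minus Holstein difference (horizontal axis, log2, limma estimate with its 95% interval) for the member probe sets and for other genes of the cycle, listed from top to bottom in the order of the reactions. From SUCLG1 down, all estimates but the dim SUCLA2 (2) are negative, while those drawn above lie on both sides of 0. This split was noticed in the values and was not tested. The ACO1 and IDH1 probe sets are not drawn, and all of them had negative estimates.

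Other genes of the cycle and its isoenzymes were read from a list of 13 genes, 11 of which were on the array with 14 probe sets. Of these, 11 had lower Brahman values, where 10699 of all 24016 probe sets did. At an unadjusted limma p under 0.05, 5 were lower and 1 higher, against 6.47% and 7.12% of all. With adjustment over all probe sets, 0 were called. The list's median difference was -0.22, beside -0.10 for the members. The spike-in covariate left 3 of the 14 under 0.05 before adjustment, with a median of -0.30. Succinate dehydrogenase, the enzyme between SUCLG1 and FH that also sits in the respiratory chain, had lower Brahman values for each subunit. The iron-sulphur subunit SDHB read 11.04, 10.88 and 10.69 in Holstein and 10.39, 10.43 and 10.38 in Brahman. All Brahman arrays were below all Holstein arrays, with a difference of -0.47 (SE 0.11, limma adjusted p = 0.173). SDHA, the flavoprotein subunit, differed by -0.30 and the membrane anchor SDHC by -0.22, with limma adjusted p-values of 0.287 and 0.357. The anchor SDHD, named to complete the enzyme after its value was seen, differed by -0.23 (limma adjusted p = 0.473).

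SUCLG1 pairs with a beta subunit that sets the nucleotide, SUCLA2 for ATP and SUCLG2 for GTP. The brighter SUCLA2 probe set read 8.77, 8.83 and 8.61 in Holstein and 8.45, 8.36 and 8.21 in Brahman. It was lower in each Brahman animal, by 0.40 on average (SE 0.11, limma adjusted p = 0.208). The dim second SUCLA2 set, at 4.42 in Holstein, differed by 0.14, and whether it reads above background is not known. SUCLG2, likewise added as a partner, read 10.64, 10.93 and 10.88 in Holstein and 10.80, 10.73 and 10.65 in Brahman, and the breeds overlapped. Its difference was -0.09 (95% interval -0.35 to 0.16). OGDHL, an OGDH-like subunit known mainly from brain, was higher by 0.26 (limma adjusted p = 0.302). A probe set of the cytosolic NADP-dependent isocitrate dehydrogenase gene IDH1 was lower, at -0.39 (limma adjusted p = 0.267). The brightest IDH1 set differed by -0.27 and the dimmest by -0.22, both with overlap between the breeds.

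Around the entry of pyruvate, 12 of 14 listed genes were on the array with 22 probe sets. Of these 5 were lower and 1 higher in Brahman at an unadjusted limma p under 0.05, against 6.47% and 7.12% of all probe sets. On this list 0 were called and the median was -0.11. With the spike-in covariate 0 of the 22 were under 0.05 before adjustment in limma and the median was 0.05. Both subunits of the mitochondrial pyruvate carrier had lower Brahman values. MPC2 read 9.56, 9.63 and 9.44 in Holstein and 9.08, 9.22 and 9.16 in Brahman, and MPC1 read 9.49, 9.86 and 9.63 against 9.35, 9.27 and 9.32. Neither overlapped, and the differences were -0.39 (SE 0.09) and -0.35 (SE 0.11), with limma adjusted p-values of 0.181 and 0.270. PDHX, the E3-binding protein of pyruvate dehydrogenase, differed by -0.27. Its inhibitory kinases went both ways, PDK2 at 0.28, PDK3 at -0.32 and a dim PDK4 set at -0.51, with limma adjusted p-values of 0.274, 0.365 and 0.313.

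For anaplerosis and outflow of intermediates, 16 of 20 listed genes were on the array with 28 probe sets. At an unadjusted limma p under 0.05, 3 were lower and 2 higher in Brahman, against 6.47% and 7.12% of all probe sets. The median was -0.02 and 0 were called. The spike-in covariate left 1 under 0.05 before adjustment, with a median of -0.10. The mitochondrial alanine aminotransferase GPT2, which makes 2-oxoglutarate from glutamate, read 8.26, 8.59 and 8.23 in Holstein and 7.82, 7.48 and 7.20 in Brahman. It was the largest difference of that list, -0.86 (SE 0.18, limma adjusted p = 0.133), with no overlap. The cytosolic aspartate aminotransferase GOT1 differed by -0.45. For the malic enzymes, 1 set of ME1 differed by 0.23 and its other, dim set by 0.06. A set of ME3 at 5.09 in Holstein differed by 0.44 and its other sets by 0.15 and 0.06, while ME2 differed by -0.16. The IDH1 probe sets named above are also on this list.

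The remaining lists held few probe sets past that threshold, which 6.47% of all probe sets passed lower in Brahman and 7.12% higher. Of 9 probe sets for lipoate and cofactor supply, 0 were lower and 1 was higher, the iron-sulphur scaffold gene ISCU at 0.25. A brighter ISCU set differed by -0.05. Of 7 for the branched-chain and lysine relatives of OGDH and DLST, DHTKD1 was lower by 0.42 and DBT higher by 0.23, both on dim sets at 5.26 and 4.60 in Brahman. Brighter sets of these genes, at 6.71 and 7.53 in Brahman, differed by 0.17 for DHTKD1 and 0.02 for DBT. Of 6 for itaconate and succinate sensing, 0 passed in either direction in limma. A set of EGLN1 and the set of EGLN3, oxygen sensors that need 2-oxoglutarate, had the smallest p-values there. They differed by -0.18 and -0.23, with overlap between the breeds. The brightest EGLN1 set, at 10.32 in Brahman, differed by -0.0089 and the remaining EGLN1 set by -0.17.

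To describe how the member genes vary over the 6 arrays, each gene's probe sets were averaged and centred, and the mean of the 7 gene profiles was taken. Single members lay at a root mean square difference of 0.0763 (MDH2) to 0.220 (CS) from that mean. The mean profile itself was shallow, from 0.11 on Holstein 1 to -0.09 on Brahman 3. Among 6609 other named genes with a mean of at least 6, the closest to it were YJU2, PRDX1, THOC5, USP20 and QRFP, at 0.0131 to 0.0282 over 6 arrays.

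**Figure D3:**
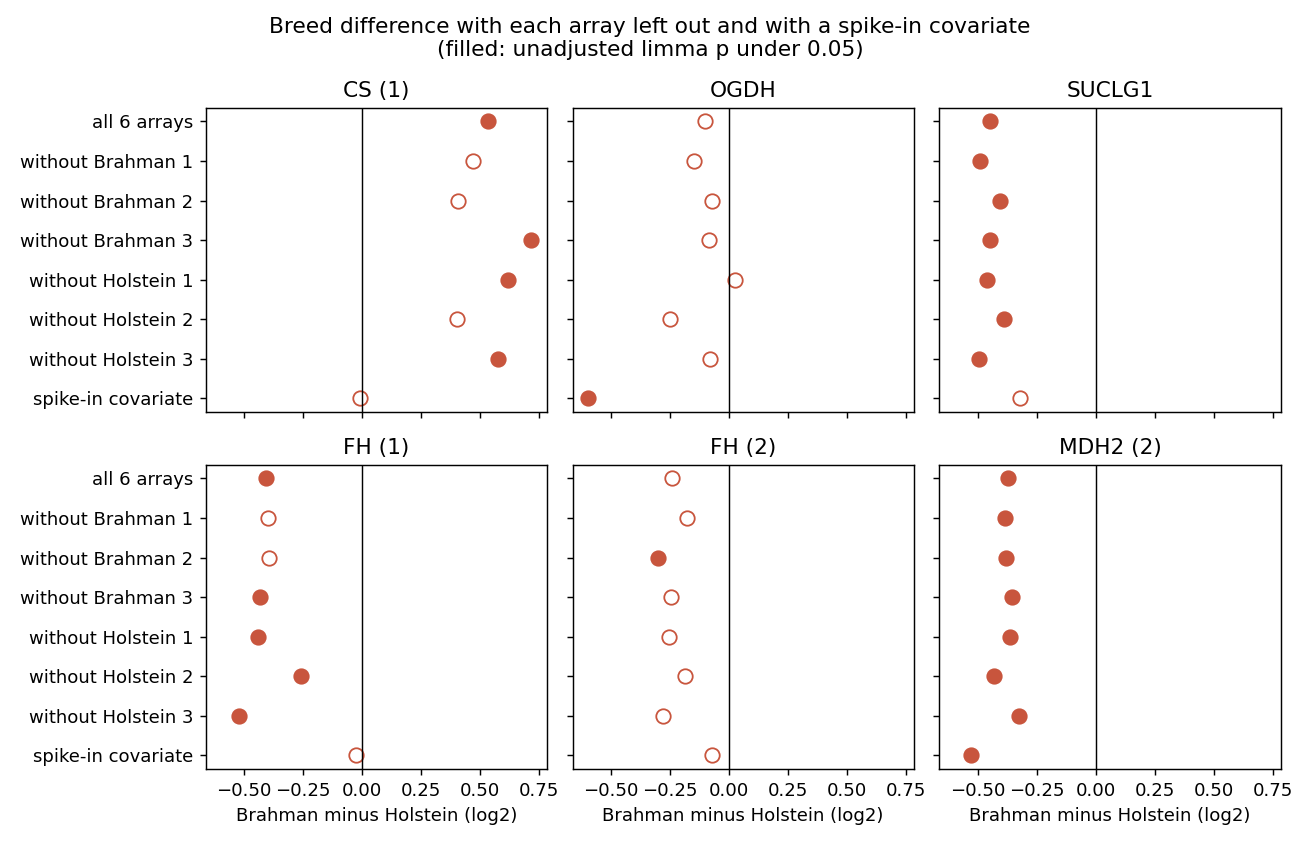
Brahman minus Holstein difference (horizontal axis, log2) of 6 member probe sets with all 6 arrays, with each array left out, and with the spike-in covariate (rows). Filled points have an unadjusted limma p under 0.05. MDH2 (2) stays filled and negative in each row, SUCLG1 in all but the covariate row, while CS (1) and both FH sets lie near 0 in the covariate row.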

How the data were processed

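The authors deposited 1 table of log2 values, made with RMA per the submitters' processing notes; no version is given in the sources used here. It holds 24128 probe sets on 6 arrays, of which 112 array controls were left out of tests. RMA quantile-normalises arrays together, so a global change is removed. Breeds come from the sample titles, and replicates are different animals. Probe sets were named through the platform's annotation (1 symbol for 13292 probe sets, several for 86, none for 10638). Brahman was compared with Holstein with limma 3.58.1 in R 4.3.3 (lmFit, eBayes, breed only, two-sided, Benjamini-Hochberg over 24016 probe sets), tested on simulated data. The number of arrays limits the precision, and no detection calls or scanner intensities were used here. Members and gene lists were chosen with earlier results of these data known. Named genes are all member probe sets and, per list, up to 6 probe sets by p under 0.05, otherwise the 2 genes with the smallest p, plus the 5 nearest profiles. Alternatives were normalisation, dim filters, priors, array weights, a replicate block, 1 value per gene, a spike-in covariate and leaving out arrays.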

Additional observations from a re-analysis of the deposited data

How the results depend on the processing

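Of 164 member differences under alternatives, 148 kept their direction and their side of an unadjusted p of 0.05. The dim filters, the priors and the replicate block leave a difference unchanged by construction. Only its p could move there, so the count overstates how far direction was put to a test. With the spike-in covariate, which itself separates the breeds, CS set 1 turned to -0.0082, 0 probe sets were called in all and 0 members were higher at that threshold. The other sign changes were among differences that did not pass, as arrays were left out: CS set 2 ran from -0.0264 (without Brahman 1; -0.0122 without Holstein 3) to 0.0859, OGDH from -0.2481 to 0.0247 (without Holstein 1), and IDH3A set 1 from -0.0259 (without Brahman 3) to 0.1866. CS set 1 lost its p under 0.05 without Holstein 2, Brahman 1 or Brahman 2 (0.40, 0.47 and 0.41). With arrays left out in turn, 5 to 55 probe sets were called, 2 to 3 members were lower and 0 to 1 higher at an unadjusted p under 0.05, and the members' median ran from -0.156 to -0.0229. With 1 value per gene, 3 of 7 members were lower and 0 higher at that threshold. The lower ones were SUCLG1 at -0.45, FH at -0.32 and MDH2 at -0.22. The replicate block left 10 probe sets called, and same-numbered animals did not pair (correlations of deviations 0.111, -0.043 and -0.074). Of 96 list medians under alternatives, 6 changed sign, in 3 lists: pyruvate entry (0.0517), lipoate and cofactor supply (0.2197) and the relatives of OGDH and DLST (0.1522) with the spike-in covariate, and the last 2 lists also without Holstein 2 (0.0039 and 0.0321) and lipoate without Brahman 1 (0.016). The causes were not tested. No detection calls were used, so dim sets such as MDH2 set 1 may be unable to show a difference.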

Other observations

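PDK4, the kinase that shuts pyruvate dehydrogenase when fat is burned, varied widely among the Brahman animals on 2 of its probe sets (chosen after its values were seen). Its brightest probe set read 3.96, 6.43 and 6.76 on Brahman 1, 2 and 3 and 6.60, 7.34 and 6.85 on Holstein 1, 2 and 3. A second set read 3.63, 4.68 and 5.50 against 5.36, 5.50 and 5.26. Brahman 1 was the lowest array on both. The other PDK4 set read 4.40, 4.89 and 4.87 against 5.04, 5.57 and 5.08, without overlap, and Brahman 1 was again lowest. Its spread was alike in the breeds, with an SD of 0.28 in Brahman and 0.30 in Holstein. The breed differences of the first 2 sets were -1.21 (SE 0.67) and -0.77 (SE 0.41), with limma adjusted p-values of 0.479 and 0.456, so neither passed.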
